A study of Mus musculus with 2 samples.

Results

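The macrophage genes described here are Csf1r, Cx3cr1, Adgre1, Mrc1, C1qa, C1qb, C1qc, Lyz2, Cd68 and Tyrobp. They were chosen by name and not by a rule on their values, though earlier results of these data were known. They make up 10 of the 43346 genes in the deposited tables, of which 21474 are protein-coding. The study sequenced total RNA from gut of the inbred mouse strain B6NCrl at embryonic day 14.5, and the labels name no allele, transgene or treatment. There was 1 group of 2 libraries, each with an input of 10 ng of RNA over 200 nucleotides in length, so no contrast between conditions could be made. The labels describe each library as 1 intestine from 1 pup, dissected on day 17 of the month for replicate 1 and day 15 for replicate 2. They also give the sex of both as pooled and cite the same donor record for both, so day of collection and embryo cannot be told apart.

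Macrophages are phagocytes that settle in fetal organs from the yolk sac and the fetal liver and clear dying cells while the organ is built. In the gut they later take up bacteria and support enteric neurons and blood vessels. Their survival depends on the receptor encoded by Csf1r, and the transcription factor PU.1, encoded by Spi1, switches on many of their genes. The genes chosen here serve different steps of that biology, namely survival signalling, sensing, uptake, digestion in the lysosome and secretion of the complement protein C1q.

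All 10 genes were detected, meaning at least 1 TPM (a length-corrected share of all transcripts of a library) in both libraries. That rule was met by 34.2% of all genes and by 61.3% of protein-coding genes. The genes' median was 19.6 TPM in replicate 1 and 20.6 TPM in replicate 2, with a mean of 20.1 ± 0.753 (SD, n = 2 libraries). The median over 13173 detected protein-coding genes was 18.4 TPM, so the macrophage genes stood near the middle of the genes the gut expressed. Together they held 236.16 TPM in replicate 1 and 245.47 TPM in replicate 2, or 0.0262% and 0.0274% of the TPM of all genes. In a bulk sample of this kind, fewer macrophages and less RNA per macrophage cannot be told apart.

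**Figure D1:**
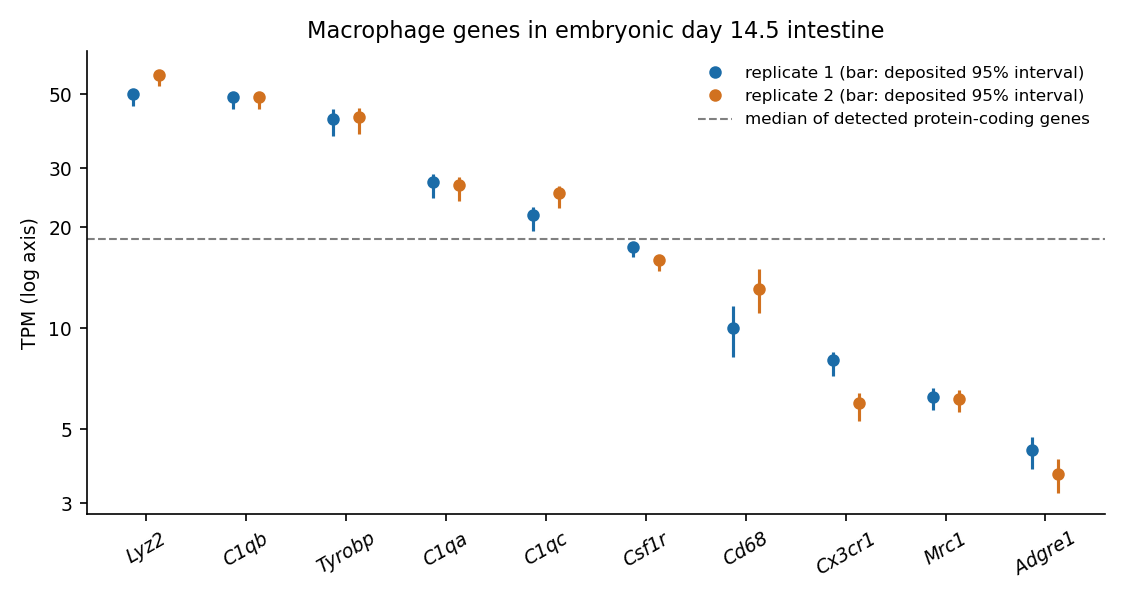
TPM (log axis) of the 10 macrophage genes in replicate 1 and replicate 2, with the deposited 95% interval of each value as a vertical bar and the median of detected protein-coding genes (18.4 TPM) as a dashed line. Lyz2, C1qb and Tyrobp lie above 40 TPM in both libraries, and Adgre1 is lowest at 4.33 and 3.68 TPM; the intervals are centred on a posterior mean, so the TPM itself sits high in them.

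From the highest mean to the lowest, the order was Lyz2, C1qb, Tyrobp, C1qa, C1qc, Csf1r, Cd68, Cx3cr1, Mrc1 and Adgre1. The highest gene exceeded the lowest 11.5-fold in replicate 1 and 15.4-fold in replicate 2. Lyz2 stood above 86.7% of protein-coding genes and Adgre1 above 48.0%. Of the 9 pairs of neighbours in this order, 3 had deposited 95% intervals that did not overlap in either library, namely Tyrobp over C1qa, C1qc over Csf1r and Mrc1 over Adgre1. In the other 6 pairs the intervals overlapped in 1 of the libraries, so those neighbours were not separated throughout. For Cx3cr1 and Mrc1 the order was reversed in replicate 2, at 6.0 and 6.16 TPM. The intervals cover counting and read assignment error within a library, not differences between embryos.

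The complement chains C1qa, C1qb and C1qc lie side by side on mouse chromosome 4 and encode the A, B and C chains of C1q, the protein that binds antibody complexes and debris of dying cells and starts the classical complement pathway. C1qc (ENSMUSG00000036896.5) sits between the others at GRCm38 chr4:136889804-136893065, 3617 bases from C1qb and 2852 bases from C1qa, and all of them run on the reverse strand. The promoter windows of C1qb and C1qc run from 250 bases before to 50 bases after the RefSeq start site. They are shown because these are neighbouring genes whose products join in 1 protein. Both are RefSeq sequences of GRCm38.p6, read 5′ to 3′ on the reverse strand, C1qb from chr4:136886151-136886450 and C1qc from chr4:136892865-136893164. Capitals mark GAGGAA or its reverse complement TTCCTC, the core of sites that PU.1 is known to bind.
C1qb: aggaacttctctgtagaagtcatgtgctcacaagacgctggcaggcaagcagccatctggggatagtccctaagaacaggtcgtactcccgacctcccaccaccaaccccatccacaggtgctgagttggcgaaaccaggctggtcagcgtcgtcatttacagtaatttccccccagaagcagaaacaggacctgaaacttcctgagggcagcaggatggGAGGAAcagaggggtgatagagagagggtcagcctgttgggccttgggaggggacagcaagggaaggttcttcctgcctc
C1qc: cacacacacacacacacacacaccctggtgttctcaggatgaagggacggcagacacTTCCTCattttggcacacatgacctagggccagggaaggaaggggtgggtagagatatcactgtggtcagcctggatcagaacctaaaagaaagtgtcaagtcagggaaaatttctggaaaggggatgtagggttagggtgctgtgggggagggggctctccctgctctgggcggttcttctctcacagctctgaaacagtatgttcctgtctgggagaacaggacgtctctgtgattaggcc

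The motif began 30 bases before the RefSeq start site in C1qb, on the gene's own strand. In C1qc it began 193 bases before the RefSeq start site, on the opposite strand. GENCODE, the source of the gene positions, starts C1qc further upstream, at chr4:136893065, inside the window shown. Both distances hold for the RefSeq start sites only. Promoter windows were at hand for 6 macrophage genes, namely C1qb, C1qc, Cd68, Cx3cr1, Lyz2 and Mrc1. GAGGAA on either strand occurred in 4 of them, with 1 copy each in C1qb and C1qc, 2 in Cd68 and 3 in Mrc1. It occurred in 9289 of all 32851 promoter windows of 300 bases, or 28.3%. A match of letters describes the window and is not evidence of binding.

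C1qb (ENSMUSG00000036905.8, chr4:136880129-136886187) had 49.11 TPM in replicate 1 and 49.12 TPM in replicate 2, from 1128 and 1141 estimated counts. C1qa (ENSMUSG00000036887.5, chr4:136895917-136898803) had 27.27 and 26.74 TPM, from 596 and 591 counts. C1qc had 21.70 and 25.25 TPM, from 556 and 654 counts. The B chain was thus the most abundant transcript of the 3 in both libraries, while the A and C chains were closer together.

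Per length, C1qb exceeded C1qa 1.80-fold in replicate 1 (exact binomial 95% interval 1.63 to 1.99) and 1.84-fold in replicate 2 (1.66 to 2.03). The ratio of C1qc to C1qa was 0.796 in replicate 1 (0.708 to 0.895) and 0.944 in replicate 2 (0.844 to 1.06). The A and C chains therefore differed beyond counting error in replicate 1 and not in replicate 2. The protein contains the chains in equal numbers, and the transcripts did not stand in that ratio in either library. The ratios rest on reads, which are not independent molecules, and their intervals cover counting error only.

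The genes on either side of the C1q cluster were much lower. Ephb2, a receptor for ephrins 44141 bases beyond C1qb, had 6.78 and 8.77 TPM. Epha8, a receptor of the same family 30616 bases beyond C1qa, had 0.60 and 0.90 TPM. All 3 chains lay above both flanking genes in each library.

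Transcripts of the complement cascade were mostly low. Of 15 genes on the list for the classical cascade, 5 were detected, with a list median of 0.20 TPM. That count was near the share of all genes detected (34.2%) and below that of protein-coding genes (61.3%). The list also holds the lectin pathway genes Masp1, Masp2 and Mbl2. The highest were C2 at 5.62 ± 0.410 TPM, C8g, part of the membrane attack complex, at 4.80 ± 0.205 TPM, and the lectin pathway protease Masp1 at 2.10 ± 0.0283 TPM (SD, n = 2 each). Named after their values were seen, the proteases that C1q activates were near the detection limit, with C1ra at 1.56 and 1.47 TPM and C1s1 at 1.27 and 1.03 TPM. The central component C3 had 0.56 and 0.52 TPM, with deposited intervals reaching 1.72 TPM in both libraries, and C4b had 0.22 and 0.18 TPM.

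By contrast, regulators that restrain complement and proteins that bind C1q were common. Their counts are to be read against the 34.2% of all genes and 61.3% of protein-coding genes detected. Of 10 regulators 8 were detected, with a median of 17.8 TPM, led by the C1 inhibitor Serping1 at 52.6 ± 7.13 TPM, the membrane regulator Cr1l at 51.2 ± 0.396 TPM and clusterin, Clu, at 50.5 ± 12.7 TPM. Of 6 C1q receptors and binding proteins 5 were detected, with Calr (calreticulin) at 602 ± 52.4 TPM, C1qbp at 256 ± 7.67 TPM and Lrp1 at 73.6 ± 2.86 TPM. The remaining receptor Megf10 averaged 0.695 TPM. Calr, C1qbp and Lrp1 are expressed by many cell types, so their levels are not a measure of macrophages.

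Lyz2 (ENSMUSG00000069516.7, chr10:117277331-117282321, reverse strand) encodes lysozyme of macrophages and other myeloid cells, which cuts bacterial cell walls. It had 49.84 TPM in replicate 1 and 56.83 TPM in replicate 2, from 1351 and 1558 estimated counts. The deposited intervals, 46.1 to 51.2 and 52.8 to 58.2 TPM, did not overlap, with replicate 1 the lower. That separation was lost when libraries were scaled by the spike-in RNA.

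Lyz1, the lysozyme gene of intestinal Paneth cells, lies 5476 bases away on the same strand. It had 5.03 and 5.67 TPM, so Lyz2 exceeded it 9.91-fold in replicate 1 and 10.02-fold in replicate 2. Lyz1 and Lyz2 transcripts are close copies, and their counts depend on how the authors' software divided shared reads. In the sequences of GENCODE M21, 1211 of 1317 aligned bases were identical (92.0%). The Lyz2 sequence of M21 has 1316 bases, against 1266 in the annotation used for counting. Of 1217 stretches of 100 bases in the M21 Lyz2 transcript, 24 (1.97%) occur unchanged in Lyz1. The deposited SD of the Lyz2 count over read assignments was 1.42 and 1.40 reads.

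The promoter windows of the pair are shown to let the copies be compared; they are RefSeq sequences of GRCm38.p6 on the reverse strand, Lyz2 from chr10:117282223-117282522 and Lyz1 from chr10:117292819-117293118. Capitals mark bases that differ between them or have no partner in the alignment.
Lyz2: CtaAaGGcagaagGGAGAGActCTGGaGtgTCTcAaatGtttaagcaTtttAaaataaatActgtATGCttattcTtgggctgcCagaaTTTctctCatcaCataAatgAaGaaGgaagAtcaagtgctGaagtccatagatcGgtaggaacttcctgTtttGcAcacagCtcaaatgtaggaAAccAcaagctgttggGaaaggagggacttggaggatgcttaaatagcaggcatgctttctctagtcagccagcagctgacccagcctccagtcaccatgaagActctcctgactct
Lyz1: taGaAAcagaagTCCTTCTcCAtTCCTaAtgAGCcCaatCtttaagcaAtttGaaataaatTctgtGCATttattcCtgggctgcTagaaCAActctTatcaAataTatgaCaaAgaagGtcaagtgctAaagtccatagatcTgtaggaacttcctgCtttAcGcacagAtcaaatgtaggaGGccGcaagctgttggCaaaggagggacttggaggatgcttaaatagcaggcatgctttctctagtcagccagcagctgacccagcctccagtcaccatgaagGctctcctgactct

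Of 302 alignment columns 249 were identical (82.5%). The differences lay mostly upstream, since 99 of the last 100 bases were identical. The transcripts thus differed about 10-fold in level while the stretch around their start sites was almost the same. No GAGGAA motif stood in the Lyz2 window.

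Cd68 (ENSMUSG00000018774.9, chr11:69664213-69666153, reverse strand) encodes a heavily glycosylated protein of late endosomes and lysosomes and is widely used as a macrophage marker. It had 9.99 TPM in replicate 1 and 13.11 TPM in replicate 2, from 209 and 290 estimated counts. The deposited intervals, 8.23 to 11.6 and 11.1 to 15.0 TPM, overlapped. Part of this signal was assigned to a transcript without a coding frame. The protein-coding Cd68-201 took 62.7% and 66.97% of the gene's TPM, and the shorter Cd68-203 of 612 bases, annotated as a processed transcript, took 37.3% and 29.33%. The intervals of Cd68-203 were wide, 1.59 to 5.59 TPM in replicate 1 and 1.51 to 6.22 TPM in replicate 2. Coding Cd68 transcripts together stood at 6.27 and 9.27 TPM.

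Cd68 also sits in a crowded place. Eif4a1, a translation initiation factor on the same strand 783 bases away, had 546.05 and 505.66 TPM. Mpdu1, a gene of sugar-donor metabolism in the endoplasmic reticulum, lies 1571 bases away on the other side and had 25.24 and 30.71 TPM. No exon of another gene overlapped those of Cd68 in the annotation. Among 13 lysosome and phagosome genes 12 were detected, with a median of 91.5 TPM, led by Lamp1 at 244 ± 4.91, Ctsd at 196 ± 0.0354 and Ctsb at 167 ± 0.905 TPM. These housekeeping lysosomal genes are made by most cell types, and they stood well above Cd68. Gpnmb, a lysosomal glycoprotein of phagocytes, averaged 0.155 TPM.

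Mrc1 (ENSMUSG00000026712.3, chr2:14229392-14332057, forward strand) encodes the mannose receptor, which takes up glycoproteins bearing mannose. It had 6.24 TPM in replicate 1 and 6.16 TPM in replicate 2, from 746 and 756 estimated counts. The coding transcript Mrc1-201 took 96.23% and 98.49% of this, and a retained intron transcript took 3.77% and 1.51%. The neighbour Tmem236, 7399 bases away, had 2.49 and 3.49 TPM, and Slc39a12, a zinc transporter gene on the other side, had 0.05 and 0 TPM. Mrc1 is also expressed by some endothelial cells of lymph vessels and liver, and 5 of 5 lymphatic endothelium genes were detected, with a median of 6.72 TPM. That median is the value of Lyve1, a gene shared with fetal macrophages. The share of Mrc1 from such cells was not tested.

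Adgre1 (ENSMUSG00000004730.10, chr17:57358691-57483527, forward strand) encodes F4/80, an adhesion G protein-coupled receptor and the classic antibody marker of mouse macrophages. It had 4.33 TPM in replicate 1 and 3.68 TPM in replicate 2, from 316 and 272 estimated counts, with overlapping intervals of 3.80 to 4.73 and 3.21 to 4.07 TPM. Despite its use as a marker it was the lowest of the macrophage genes. Nearly all of it was the coding Adgre1-202, at 95.71% and 100% of the gene. Its neighbour Vav1, a signalling gene of blood cells, had 3.02 and 1.65 TPM, and Vmn2r120, a vomeronasal receptor gene, was listed at 0.

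Tyrobp (ENSMUSG00000030579.9, chr7:30413760-30417585, forward strand) encodes DAP12, a small adaptor that carries signals from TREM2 and other myeloid receptors. It had 42.22 TPM in replicate 1 and 42.57 TPM in replicate 2, from 456 and 465 estimated counts. The libraries differed by far less than the width of either interval, 37.6 to 45.1 and 37.9 to 45.4 TPM. Hcst, which encodes the related adaptor DAP10, lies only 127 bases away on the opposite strand and had 1.53 and 1.01 TPM from 12 and 8 counts. Lrfn3, a neuronal adhesion gene on the other side, had 3.62 and 3.45 TPM.

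Of 11 Tyrobp partners and signalling genes 8 were detected, against 61.3% of all protein-coding genes. The other common adaptor of myeloid receptors, Fcer1g, stood beside Tyrobp at 37.00 and 43.29 TPM, a mean of 40.1 ± 4.45. The kinase Lyn averaged 16.2 ± 0.339 TPM and the phosphatase Ptpn6 10.1 ± 0.912 TPM. Ptpn6 had 9.50 and 10.79 TPM, each below its deposited interval, 10.5 to 19.9 and 11.5 to 21.4 TPM. Its level was therefore less certain than the SD shows. Among the receptors, Clec5a averaged 0.84 TPM, Sirpb1a was listed at 0 and Trem2, named after its value was seen, had 2.09 and 2.27 TPM, each below Tyrobp and Fcer1g in both libraries. The kinase Btk averaged 0.595 TPM, with deposited intervals reaching 1.64 and 1.41 TPM.

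Cx3cr1 (ENSMUSG00000052336.6, chr9:119901616-120069879, reverse strand) encodes the receptor of fractalkine, a chemokine held on cell surfaces. It had 8.03 TPM in replicate 1 and 6.0 TPM in replicate 2, from 607 and 456 estimated counts. The intervals, 7.21 to 8.51 and 5.30 to 6.41 TPM, did not overlap, and replicate 1 was higher 1.34-fold. The ligand gene Cx3cl1 had 5.00 and 7.90 TPM, with replicate 1 the lower. Ccr8 and Scn11a, on either side, averaged 0.26 and 0.035 TPM.

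The transcripts of Cx3cr1 were less certain than its total. Cx3cr1-202 took 65.39% and 68.69% of the gene and Cx3cr1-201 took 34.61% and 31.31%. The larger share went to the transcript with the weakest support level of the annotation (5), against the best level (1) for Cx3cr1-201. Division of the reads between them carried an SD of 41.45 and 38.1 reads.

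Csf1r (ENSMUSG00000024621.11, chr18:61100598-61132149, forward strand) encodes the receptor tyrosine kinase for CSF1 and IL-34, on which most tissue macrophages depend. It had 17.43 TPM in replicate 1 and 16.01 TPM in replicate 2, from 1839 and 1671 estimated counts, the most reads of any of the macrophage genes. The intervals, 16.26 to 17.92 and 14.78 to 16.45 TPM, overlapped narrowly. Its relative Pdgfrb, the growth factor receptor of mesenchymal and mural cells, lies 15537 bases away and was higher, at 31.69 and 31.45 TPM. Slc26a2, a sulfate transporter gene on the other side, had 13.42 and 13.76 TPM.

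Csf1r-202 carried most of the signal, with 92.87% and 80.87% of the gene, and Csf1r-201 had 7.13% and 19.13%. The SD of the Csf1r-202 count over read assignments was 73.7 of 1730 reads in replicate 1 and 110.95 of 1400 reads in replicate 2. The intervals of Csf1r-201 ran from 0.0829 to 3.06 TPM in replicate 1 and from 0.650 to 4.85 TPM in replicate 2, and so overlapped. Of the 4701 bases of Csf1r-202, 873 (18.6%) overlap exons of Hmgxb3 on the opposite strand, a gene at 10.4 and 10.27 TPM. Whether strand was used in counting is not given in the sources used here, so reads of this stretch cannot be assigned with certainty. The other 9 macrophage genes had no such overlap.

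Both ligands of this receptor were found, at unequal levels. Csf1 had 10.63 and 10.41 TPM, and Il34 had 0.91 and 1.20 TPM, just missing detection in replicate 1. The deposited intervals of Il34 ran from 0.924 to 2.38 TPM in replicate 1 and from 1.16 to 2.70 TPM in replicate 2. Its TPM thus lay below the interval in replicate 1 and near the lower bound in replicate 2. By TPM, Csf1 exceeded Il34 11.7-fold in replicate 1 and 8.68-fold in replicate 2. The size of these ratios is uncertain, though the intervals of Csf1 stood above those of Il34 in both libraries. The receptor Csf1r exceeded Csf1 1.64-fold and 1.54-fold.

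**Figure D2:**
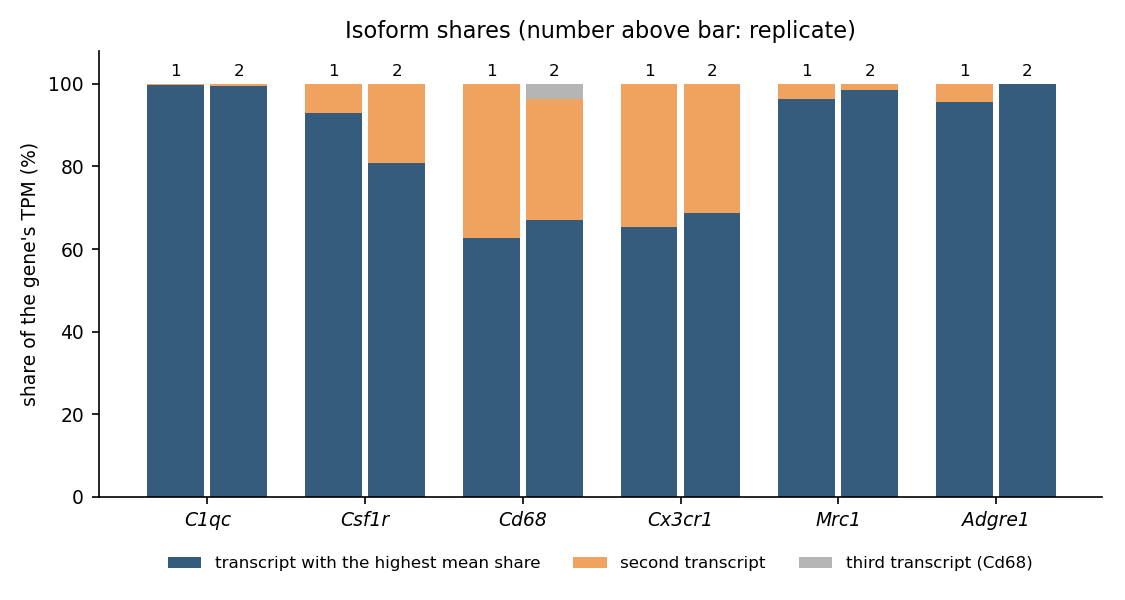
Share of each transcript in its gene's TPM (percent, axis from 0) for the 6 macrophage genes with more than 1 annotated transcript, with replicate 1 and replicate 2 side by side. C1qc, Mrc1 and Adgre1 were nearly all 1 transcript, while Cd68 and Cx3cr1 had leading shares between 62.7% and 68.69%.

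The 10 genes had 17 transcripts in the tables, and 4 genes (C1qa, C1qb, Lyz2 and Tyrobp) had a single one. C1qc was almost as simple, with C1qc-201 at 99.74% and 99.55%. For 8 of the 10 genes the deposited SD of the gene count over read assignments was 0 in both libraries, and the exceptions were Csf1r, at 8.58 and 8.79 reads, and Lyz2. Read assignment thus added little error to the gene totals, while it added much to the division among transcripts of Csf1r, Cx3cr1 and Cd68.

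The libraries were then set against each other. A gene was said to differ when it averaged 5 TPM or more, differed by 1 or more in log2(TPM + 1) and had deposited intervals apart from each other, a rule met by 0.495% of the 11324 genes it could be applied to. None of the 9 macrophage genes at that level met it, against 2 of 76 genes at that level on the other lists; at so low a background share, 0 of 9 says nothing particular about these genes. Of the 10, 5 were higher and 5 lower in replicate 1, but 3 were higher under TMM or DESeq2 scaling and 7 under spike-in scaling. Non-overlapping intervals alone occurred in 2 of 10, Cx3cr1 and Lyz2, against 21.1% of all detected genes, so this count was near the background. All 10 lay within the range that held 95% of genes of its level class, which was 2.15-fold at 1 to 5 TPM, 1.36-fold at 5 to 50 TPM and 1.20-fold from 50 TPM. Cx3cr1, at 1.34-fold, and Cd68, at 1.31-fold in the opposite direction, were closest to the edge of their class.

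**Figure D3:**
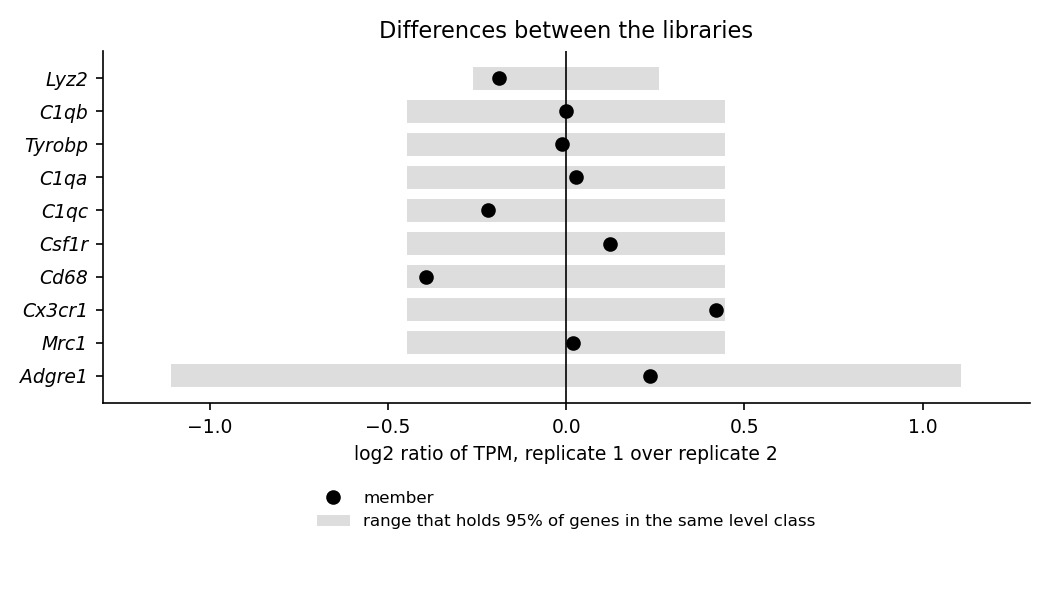
Log2 ratio of TPM, replicate 1 over replicate 2, for each macrophage gene (points), with grey bars for the range that held 95% of genes in the same class of mean TPM. All 10 points lie inside their bars, on both sides of 0, and Cx3cr1 and Cd68 lie farthest out.

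The median log2 ratio was 0.01 for the macrophage genes and 0.05 for detected genes. Scaling by the spike-ins moved the median of detected genes to 0.15, and scaling by TMM or DESeq2 factors moved it close to 0, so the directions of genes with ratios near 1 depended on the scaling. Those that turned were Mrc1 and C1qa under TMM and DESeq2 factors and C1qb and Tyrobp under spike-in scaling. With 1 library per replicate, no test between the libraries was possible. A chi-square comparison of their counts over 17781 genes gave 15.3 for each degree of freedom, so the files do not hold 1 library deposited under both numbers; it says nothing on whether the samples are separate animals.

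Transcription factors of the myeloid lineage were present but not high. All 11 on the list were detected, with a median of 5.71 TPM. Zeb2, which maintains macrophage identity and is also made by neurons and mesenchyme, led at 36.1 ± 2.39 TPM. Irf8 stood at 23.2 ± 2.31 TPM and Maf at 8.07 ± 0.0707 TPM. Spi1, named for its product PU.1 and after its value was seen, had 4.21 and 5.38 TPM, below Irf8 5.13-fold in replicate 1 and 4.62-fold in replicate 2. Cebpb, an early-response factor also named after its value was seen, differed by the rule above, with 2.18 TPM in replicate 1 and 9.73 TPM in replicate 2.

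Other macrophage genes extended the picture. Of 21 on the list 16 were detected, against 61.3% of all protein-coding genes. The list median was 2.04 TPM, below that of the 10 genes described here. Laptm5, a lysosomal membrane protein of blood cells, had 29.8 ± 1.67 TPM, the protease Ctss 19.2 ± 2.18 TPM and Lst1 14.2 ± 1.13 TPM. The genes of this list under 1 TPM in both libraries were Timd4, Siglec1, Cd163 and Vsig4. Timd4, a receptor for dying cells, had 0.33 and 0.64 TPM, Siglec1 0.23 and 0.32 TPM and the haemoglobin scavenger receptor Cd163 0.05 and 0.15 TPM. Vsig4, a complement receptor, had 0 counts in both libraries, with deposited intervals reaching 0.443 and 0.433 TPM.

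Genes of antigen presentation were detected in 6 of 7 cases, against 61.3% of all protein-coding genes, with a list median of 4.14 TPM. Cd74, the invariant chain, had 19.6 ± 1.58 TPM, H2-Ab1 9.74 ± 0.453 TPM and H2-DMa 4.48 ± 1.12 TPM. Their master regulator Ciita averaged 0.205 TPM. Among 15 relatives of the macrophage genes 9 were detected, near the share of all protein-coding genes (61.3%). The highest were the mesenchymal receptor Pdgfra at 42.6 ± 6.19 TPM, the F4/80 relative Adgre5 at 32.1 ± 0.714 TPM and Pdgfrb at 31.6 ± 0.170 TPM.

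Most genes that define other blood cells were lower than the 10 macrophage genes. The 8 lists for other leukocytes and megakaryocytes held 45 genes, of which 15 were detected. That count was near the share of all genes detected (34.2%) and below that of protein-coding genes (61.3%). Of the 45, 6 reached the mean of Adgre1 (4.01 TPM), and 8 had 0 counts in both libraries. The median of the other macrophage genes, 2.04 TPM, was below that of the megakaryocyte list, 2.49 TPM, and above those of the remaining lists. Only Plac8, at 210.18 ± 12.3 TPM, and the platelet chemokine gene Pf4, at 39.0 ± 6.03 TPM, exceeded 10 TPM in both libraries. Plac8 is also an epithelial gene. Of the other monocyte genes, Ccr2 had 3.59 ± 0.247 TPM, just below Adgre1 and with intervals that overlapped those of Adgre1 in both libraries. Ly6c2 averaged 0.79 TPM. Chil3 had 0 counts, with deposited intervals reaching 1.89 TPM in both libraries. Pf4 is shared by megakaryocytes and some fetal macrophages, and beside it Itga2b stood at 4.40 ± 0.891 and Ppbp at 2.49 ± 0.417 TPM.

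Most lymphocyte genes were below 1 TPM. Of 6 T cell genes 1 was detected, the kinase gene Lck at 6.33 TPM, while Cd3g averaged 0.775 and Cd4 0.255 TPM and Cd3d and Cd8a had 0 counts. Of 5 B cell genes 1 was detected, Cd79b at 3.13 ± 0.198 TPM, and Ms4a1 and Pax5 had 0 counts. The deposited intervals of Pax5 nonetheless ran from 0.729 to 2.50 TPM in replicate 1 and from 0.712 to 2.47 TPM in replicate 2, so its level was not bounded near 0. Among genes of innate lymphoid and NK cells, Il2rb averaged 0.81 and Il7r 0.56 TPM. Of 6 dendritic cell genes 2 were detected, Zbtb46 at 7.92 ± 1.12 and Siglech at 1.25 ± 0.0354 TPM, and the defining genes Flt3, Clec9a and Xcr1 averaged 0.14, 0.19 and 0.035 TPM. Of 5 mast cell genes only Cpa3, at 1.69 TPM, was detected. Zbtb46 is made by endothelium as well.

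Of the 8 neutrophil genes 3 were detected, and only S100a8 averaged 5 TPM, the level at which the rule for a difference applied. S100a8, a calcium-binding protein abundant in neutrophils, had 2.06 TPM in replicate 1 and 14.53 TPM in replicate 2, from 14 and 100 counts, and met the rule for a difference. S100a9, its partner, had 1.25 and 4.12 TPM, with intervals apart (0.739 to 2.17 and 2.96 to 5.50 TPM) but a mean under that level. Ngp, named after its values were seen, had 0.28 and 1.20 TPM, while Mpo, an enzyme of neutrophil granules, had 1.33 and 1.31 TPM and Ly6g had 0 counts. Camp had 0.34 and 0.94 TPM and Ltf 0.39 and 0.68 TPM. Elane went the other way, with 0.42 TPM in replicate 1 and 0.10 TPM in replicate 2, from 8 and 2 counts. The summed 236.16 TPM (replicate 1) and 245.47 TPM (replicate 2) of the macrophage genes stood against 6.07 TPM and 22.88 TPM for the neutrophil list. Lyz2 is also made by neutrophils, and it too was lower in replicate 1. The share of Lyz2 from neutrophils was not tested.

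**Figure D4:**
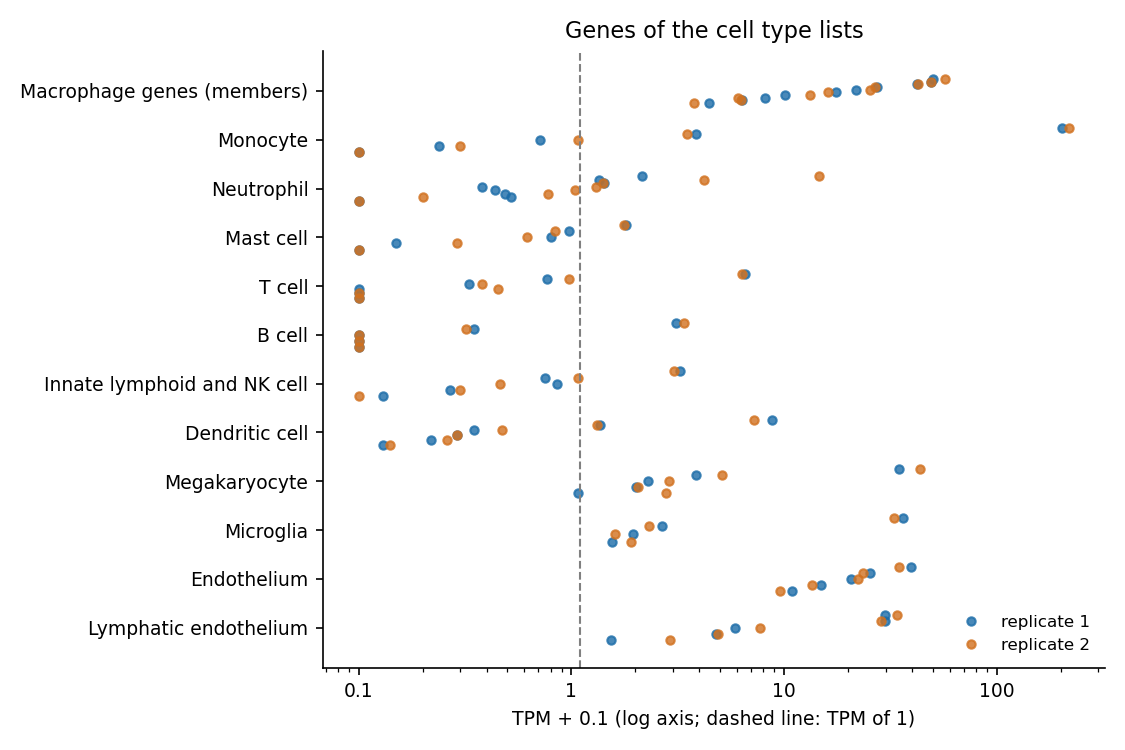
TPM + 0.1 (log axis) of the 10 macrophage genes described here and of every gene on the lists for other blood cells, microglia and endothelium. Replicate 1 and replicate 2 are in separate colours, with a dashed line at 1 TPM. The list of 21 other macrophage genes, of which 16 were detected and 5 were not, is not plotted. The 10 macrophage genes plotted lie to the right of the line, while most genes of the neutrophil, mast cell, T cell, B cell, innate lymphoid and dendritic cell lists lie to its left.

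Microglia are the macrophages of the brain, and genes used to mark them there were also present in the gut. All 4 were detected, with Tmem119, which is also expressed by bone-forming and stromal cells, at 34.6 ± 2.47 TPM, Sall1 at 2.39 ± 0.255 TPM and P2ry12 at 1.69 ± 0.247 TPM. Endothelium was represented by Pecam1 at 37.1 ± 3.32, Kdr at 24.4 ± 1.37 and Cdh5 at 21.4 ± 1.10 TPM, and lymphatic endothelium by Stab1 at 31.8 ± 2.81, Pdpn at 29.0 ± 0.884 and Lyve1 at 6.72 ± 1.31 TPM. Stab1 and Lyve1 are shared with fetal macrophages. Of the same list, and named after their values were seen, Flt4 had 4.69 and 4.77 TPM and Prox1 1.43 and 2.80 TPM. The structural tissues stood far higher, with list medians of 359.5 TPM for epithelium (Epcam 511 ± 8.15 TPM), 229 TPM for mesenchyme (Col3a1 1584 ± 125 TPM) and 676 TPM for smooth muscle (Acta2 1556 ± 110.01 TPM). These lists mark layers of the gut wall, the labelled tissue, and were high in both libraries. The macrophage genes' median of 20.1 TPM was close to the 21.4 TPM of the endothelial list.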

How the data were processed

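Total RNA-seq of 2 libraries of 1 tissue was read from gene and transcript tables. Alignment was to mm10 and annotation GENCODE M4, per the notes deposited with the files; the software, its version and strandedness were not given in the sources used here. The deposited files hold, per the file headers, expected counts (estimated reads, not whole where reads were shared), TPM, FPKM, the percent share of each transcript in its gene, effective lengths, and the posterior mean and bounds of a 95% interval of each TPM, recorded here as TPM and scores. Replicates 1 and 2 held 34504419 and 34042802 estimated counts, of which 32938592 and 32371363 lay in genes. Synthetic ERCC spike-ins took 4.54% and 4.91% of counts and 9.77% and 10.4% of TPM, so TPM of genes understates their share of cellular RNA. A floor of 3 counts equalled 0.0244 to 0.278 TPM for the macrophage genes.

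GENCODE M21, a later annotation on the same assembly (GRCm38, or mm10), supplied symbols, biotypes, positions and the Lyz1 and Lyz2 transcript sequences. Of 43346 gene identifiers 42462 matched. Promoters came from RefSeq on GRCm38.p6. Values are means of both libraries with the SD; no test was made, because there is 1 group. Whether replicates are separate animals rests on the labels alone. Expected counts were rounded for TMM factors and dispersion in edgeR 4.0.16 and size factors in DESeq2 1.42.0 (R 4.3.3); the common dispersion over 17222 genes with at least 10 counts in both libraries was 0.0130, a coefficient of variation of 11.4%. Tables were computed with Python 3.11.15, pandas 2.3.3 and scipy 1.17.1. Nearest genes are protein-coding genes, with distances between gene ends.

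The genes and lists (24 others, 182 different genes) were chosen with earlier results of these data known. Named are all macrophage genes, their nearest protein-coding neighbours, the 3 highest genes of each list and, where at most 4 exist, those under 1 TPM in both libraries; the text says where others are named. A few genes named by it are left unreported. No measure of likeness between expression patterns can be had from 2 libraries of 1 group. Alternatives were other detection thresholds, a count filter, posterior mean TPM, TPM rescaled over nuclear protein-coding genes, FPKM, a pseudocount of 0.1 in place of 1, no filter on low values, TMM, DESeq2 and spike-in scaling, and leaving out each library.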

Additional observations from a re-analysis of the deposited data

How the results depend on the processing

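No paired analysis was possible because there is 1 group and its replicate numbers pair nothing. All 10 genes stayed detected at 0.5 TPM, at a count of 10 and with either library left out (10 to 10), and 9 at 5 TPM, Adgre1 being the exception. The median was 19.6 to 20.6 TPM with a library left out, and 26.3 TPM when TPM was rescaled over nuclear protein-coding genes, where detected protein-coding genes had a median of 24.2. No macrophage gene met the rule for a difference under any of the 6 alternatives, which called between 50 and 116 genes; without the filter on low values 116 genes were called, over all 43346 genes. The ratio of C1qb to C1qa was 1.80 to 1.84 and of C1qc to C1qa 0.796 to 0.944 with a library left out. Posterior mean TPM changed all 10 genes downward, by -0.736% to -2.36%, with the order unchanged. Transcript shares from posterior means, an alternative chosen after seeing the data, were 92.8% for Adgre1-202 (97.9% as deposited) and 99.4% for C1qc-201 (99.6%). Scalings of the intervals, also chosen after seeing the data, left 3 genes with separate intervals each: Cx3cr1, C1qc and Lyz2 under TMM and DESeq2 factors, and Csf1r, Cx3cr1 and Adgre1 under spike-in scaling, which separated 34.5% of all detected genes. Cx3cr1 was separate under each of these scalings. The number of genes higher in replicate 1, 5 as deposited, was 3 under TMM, 3 under DESeq2 and 7 under spike-in scaling, also chosen after seeing the data. The cause of these changes was not tested. With 2 libraries, spread between embryos is poorly known, and values under about 1 TPM rest on few counts.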
